A study of Mus musculus with 8 samples.

Results

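Plasminogen activation and coagulation at the cell surface were followed through 9 genes chosen by symbol. They are Plat, Plau, Plaur and Serpine2 of the plasminogen system, and F3, F2r, Thbd, Procr and Tfpi of coagulation. All 9 were found among the 24346 genes listed in each library, and all 9 were above 0 in at least 1 library, which was the only filter on low values. The libraries came from primary adipose-derived stem cells (ADSCs) of BALB/c mice, all male and 12 weeks old, taken from gonadal adipose tissue. The 2D group held 4 libraries (mice 2, 3, 4 and 5), grown as conventional cultures in medium with serum. The 3D group held 4 libraries (mice 1, 4, 5 and 7), grown as organoids in Matrigel. Mice 4 and 5 were cultured both ways, and the sample titles name no genotype, drug or other treatment that set the groups apart. The paper grew 3D cultures with or without media conditioned with Wnt3a and R-Spondin1, which are signalling factors. The exact medium of the sequenced 3D cultures is not given in the sources used here, so the effects of culture geometry, Matrigel and medium cannot be told apart. The comparison of 3D with 2D asks how the transcriptome of ADSCs grown as organoids differed from that of the flat culture.

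Plasminogen is a circulating zymogen that tissue plasminogen activator (Plat) and urokinase (Plau) cut into plasmin, the protease that dissolves fibrin and also degrades matrix around cells. The urokinase receptor (Plaur) holds urokinase at the membrane, and serpins such as Serpine2 (protease nexin-1) inhibit both activators. Coagulation begins when tissue factor (F3) binds factor VII, and tissue factor pathway inhibitor (Tfpi) blocks this complex together with factor X. The thrombin made then signals through its receptor PAR1 (F2r), while thrombomodulin (Thbd) and the endothelial protein C receptor (Procr) turn thrombin towards activation of the anticoagulant protein C.

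Depth, estimated from the steps between low values, lay between 14.46 M and 17.28 M fragments per library, and between 15378 and 16134 genes were above 0. Values below are FPKM (fragments scaled by transcript length and by library depth) after quantile normalization over the libraries, and fold changes are fitted on log2(FPKM + 1), which understates the change of low genes. The median fold change of all 18862 genes tested was 0.00122 on this log2 scale. Markers of the labelled cell type differed between the groups. The summed FPKM of 12 stromal genes, which include Col1a1 and Dcn, lay between 2098 and 4530 in 2D and between 4.78 and 8.71 in 3D, where 10 of the 12 were below 1 FPKM in every library and Dcn was listed at 0. Summed over 12 epithelial genes, FPKM was between 31.8 and 694 in 2D and between 2723 and 3183 in 3D. The part of these differences in the results below was not tested, and in bulk RNA a smaller number of cells of a type and less RNA per cell cannot be told apart.

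In 3D, 4 of the 9 genes (F2r, Thbd, Procr and Tfpi) were lower at an adjusted p below 0.05 (limma, Benjamini-Hochberg over all genes), and Plau was higher. For comparison, 20.3% of all genes tested were called lower and 21.2% higher. The median fitted fold change of the 9 genes was -0.73 on the log2 scale. All 3D libraries lay below all 2D libraries for the 4 lower genes, as they did for 20.9% of all genes tested, while the groups overlapped for the other 5 genes. Entering the mouse as a block rests on the pairs of mice 4 and 5 and leaves 1 residual degree of freedom. That fit called 0.0% of all genes in either direction and none of the 9, with adjusted p-values of at least 0.111. At an unadjusted p below 0.05 the blocked fit held F2r, Plat, Tfpi and Procr, 4 of the 9, against 27.7% of all genes.

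**Figure D1:**
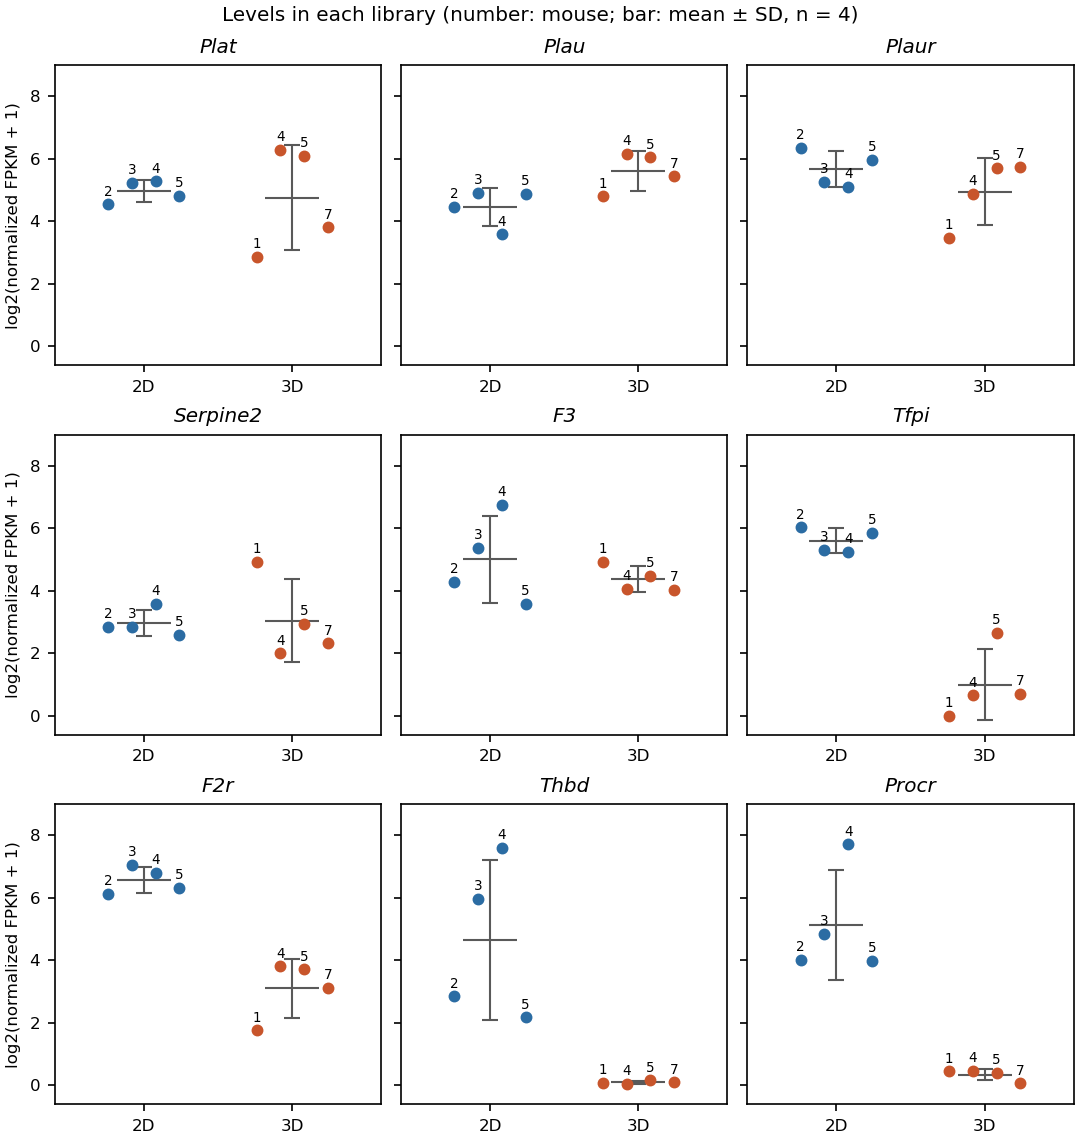
Level of each of the 9 genes in each library, as log2(normalized FPKM + 1), with the mouse number beside each point and the mean ± SD of the 4 libraries of each group. Tfpi, F2r, Thbd and Procr have all 3D points below all 2D points, with F2r between 2.41 and 13.05 FPKM in 3D against 69.3 to 132 FPKM in 2D, while the other 5 genes overlap.

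The 9 genes are protein-coding and lie on 7 chromosomes of mm10 (GRCm38), with positions from GENCODE M21. Thbd (chr2:148404466-148408188, minus strand), Procr (chr2:155751117-155755471, plus strand) and Tfpi (chr2:84432855-84476775, minus strand) share chromosome 2. F2r lies at chr13:95601803-95618487 on the minus strand, between the related receptor genes F2rl1 (chr13:95511732-95525227) and F2rl2 (chr13:95696853-95702739). Plaur was placed at chr7:24462484-24475968 (plus strand), F3 at chr3:121723537-121735048 (plus), Plat at chr8:22757727-22782844 (plus), Plau at chr14:20836660-20843385 (plus) and Serpine2 at chr1:79794197-79861180 (minus). No exon of the 9 genes overlapped an exon of another annotated gene.

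The 250 bases before the transcription start were searched on both strands for short motifs in the RefSeq promoter windows (GRCm38.p6) of Plaur, Serpine2, F3, F2r, Procr and Tfpi. No window was available here for Plat, Plau or Thbd, so these genes were not searched. The letters TGANTCA, with N as any base, include sites bound by the AP-1 family of stress- and growth-responsive factors but are wider than these. They were found for 4 of the 6 genes, Plaur, F3, F2r and Procr, against 6.75% of 32851 windows of the same length. The 6 were counted per gene, with 2 windows for Tfpi, and the shares are per window. Procr and F2r were among the lower genes in 3D, whereas Plaur and F3 did not pass the test. Stretches around the match are printed for Procr (chr2:155751036-155751096, plus strand), F2r (chr13:95618637-95618697, minus strand) and Plaur (chr7:24462387-24462447, plus strand), 5′ to 3′ along the gene, with the match in capitals, as genes of both outcomes that carry it.
Procr: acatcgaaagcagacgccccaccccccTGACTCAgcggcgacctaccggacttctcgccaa
F2r: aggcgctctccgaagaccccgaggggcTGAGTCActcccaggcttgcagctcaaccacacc
Plaur: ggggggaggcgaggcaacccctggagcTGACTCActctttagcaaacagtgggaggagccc
The first base of the match lay 154 bases before the start in Procr, 204 in F2r and 69 in Plaur. F3 held 2 matches, TGAATCA from 146 bases and TGAGTCA from 135 bases before its start. The GC box GGGCGG was found for 5 of the 6 genes, all but Procr, against 32.7% of windows, and the TATA letters TATAAA for Tfpi only, against 12.4%. The cAMP response element TGACGTCA (1.55% of windows) and the TEAD letters GGAATG (12.6%) were found for none of the 6. The motifs were picked after expression values were known, and a match is a run of letters, not a bound site.

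Tissue factor, the cell-surface starter of coagulation, did not differ between the cultures beyond the spread of the libraries. F3 stood at 18.6, 40.9, 107 and 11.1 FPKM in 2D mice 2, 3, 4 and 5, and at 29.4, 15.7, 21.5 and 15.5 FPKM in 3D mice 1, 4, 5 and 7. The 2D libraries were spread over a 9.69-fold range and the 3D libraries over a 1.90-fold range inside it. Fitted on the log2 scale, the change of F3 was -0.63 ± 0.64 (SE; limma adjusted p = 0.464), and in the same animals F3 was lower in 3D by -2.70 in mouse 4 and higher by 0.90 in mouse 5 on the log2 scale. Leaving out the 2D libraries of mice 3 and 4 turned the value to 0.43 (adjusted p = 0.336), an alternative chosen after seeing the data.

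Its inhibitor Tfpi was much lower in 3D. Tfpi was at 64.4, 38.8, 37.1 and 57.0 FPKM in 2D mice 2, 3, 4 and 5. In 3D it was listed at 0 in mouse 1, which allows up to 0.0523 FPKM at the depth of that library, and stood at 0.576, 5.28 and 0.636 FPKM in mice 4, 5 and 7. Every 3D library was thus below the lowest 2D library, and mouse 5 was the highest of the 3D group. The means were 49.3 ± 13.5 FPKM in 2D and 1.62 ± 2.46 FPKM in 3D (SD, n = 4 each), a 30.4-fold ratio, which was 122-fold without the 3D library of mouse 5. The fitted log2 fold change of Tfpi was -4.61 ± 0.54 (SE; limma adjusted p = 4.08e-04), and without the 3D library of mouse 5 it was -5.19. With the mouse as a block the value was -3.90 (adjusted p = 0.125).

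Within a library, the log2 ratio of F3 to Tfpi weighs the initiator against its inhibitor, with 0.1 FPKM added to each. It was -1.79, 0.07, 1.53 and -2.35 in 2D mice 2, 3, 4 and 5, and 8.21, 4.54, 2.01 and 4.41 in 3D mice 1, 4, 5 and 7. All 3D ratios were above all 2D ratios, and the highest belongs to the library in which Tfpi was listed at 0. The difference of the means was 5.43 on the log2 scale (exact permutation test, two-sided; p = 0.0286, which is the lowest value for 4 against 4 libraries, and 0.0714 after Benjamini-Hochberg adjustment over 5 ratios). It was 3.98 with a pseudocount of 1, 4.29 without the 3D library of mouse 1 and 3.69 with mice 4 and 5 alone, and ranged up to 6.86 without the 2D libraries of mice 3 and 4.

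**Figure D2:**
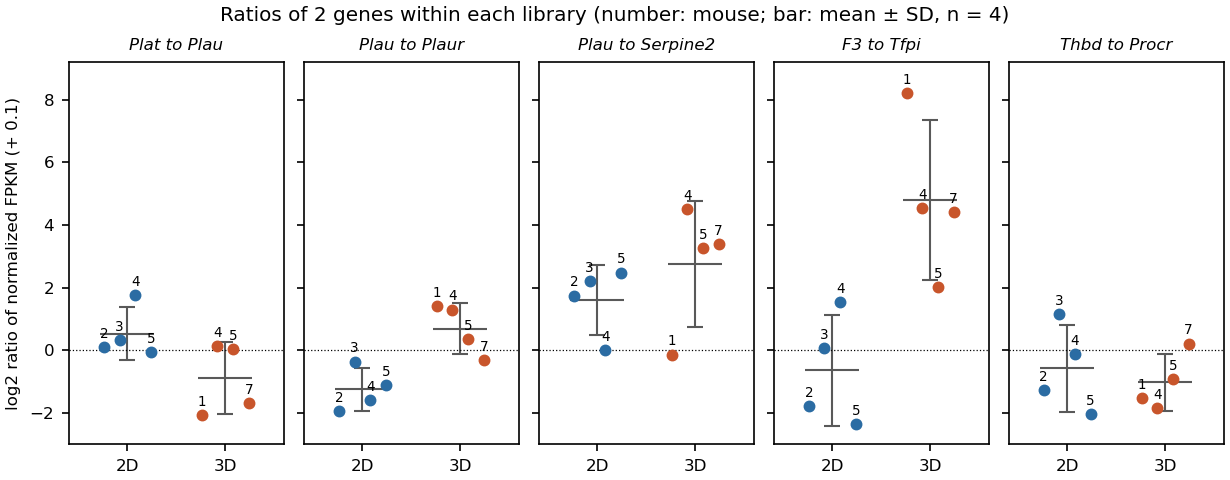
Log2 ratio of 2 genes within each library (normalized FPKM + 0.1), for the 5 ratios tested, with mouse numbers and the mean ± SD of 4 libraries per group. The ratios of F3 to Tfpi and of Plau to Plaur have all 3D points above all 2D points (differences of 5.43 and 1.94), and the other 3 overlap.

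Both receptors of protein C activation were below 1 FPKM in every 3D library, and Thbd was close to the detection limit there. Thbd stood at 6.21, 61.8, 193 and 3.53 FPKM in 2D mice 2, 3, 4 and 5, and at 0.0601, 0.0317, 0.124 and 0.0733 FPKM in 3D mice 1, 4, 5 and 7. These 3D values rest on about 5, 2, 7 and 4 fragments. The groups did not overlap, yet the 2D libraries themselves spread 54.8-fold, with mice 3 and 4 far above mice 2 and 5. The means were 66.2 ± 88.9 and 0.0722 ± 0.0385 FPKM (SD, n = 4 each). For Thbd the fitted log2 fold change was -4.55 ± 1.14 (SE; limma adjusted p = 0.0145). Its size depends on the added value, and with 0.1 in place of 1 FPKM it was -7.08 for Thbd, -6.63 for Procr and -6.06 for Tfpi, all past the threshold.

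Procr, like Thbd, was highest in mouse 4 and next in mouse 3 among the 2D libraries. Its values were 15.1, 27.9, 209 and 14.8 FPKM in 2D mice 2, 3, 4 and 5, and 0.363, 0.374, 0.321 and 0.0497 FPKM in 3D mice 1, 4, 5 and 7. Mouse 4 was the highest 2D library by a wide margin. Mouse 7 was the lowest 3D library, at about 1 fragment, against about 13, 11 and 8 fragments in 3D mice 1, 4 and 5. Means of 66.7 ± 95.1 and 0.277 ± 0.153 FPKM (SD, n = 4 each) gave a 241-fold ratio, which was 69.6-fold without the 2D library of mouse 4. For Procr the fitted log2 fold change was -4.80 ± 0.79 (SE; limma adjusted p = 0.00215). Leaving out the 2D library of mouse 4 brought it to -3.94 and that of Thbd to -3.57, both still past the threshold. In the blocked fit the adjusted p was 0.287 for Thbd and 0.178 for Procr, with the fall in both mice, by -7.56 and -2.01 for Thbd and by -7.26 and -3.58 for Procr (log2, mice 4 and 5).

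No difference in the balance of these receptors was detected. The log2 ratio of Thbd to Procr averaged -0.57 ± 1.39 in 2D and -1.02 ± 0.91 in 3D (SD, n = 4 each), a difference of -0.45 (two-sided exact permutation p = 0.629). Its sign changed with a pseudocount of 1 (0.24) and without the 2D library of mouse 3 (0.12).

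Markers of mesothelium, the lining of the abdominal fat, went with the spread of Thbd, Procr and F3 in 2D. The summed FPKM of 7 mesothelial genes was 1.99, 854, 2148 and 0.569 in 2D mice 2, 3, 4 and 5 and between 2.57 and 33.97 in 3D, where 5 of the 7 were below 1 FPKM in every library. Upk3b, a uroplakin of mesothelial cells, was at 192 and 481 FPKM in mice 3 and 4 and listed at 0 in mice 2 and 5. Thbd, Procr and F3 were each highest in mouse 4 and next in mouse 3. Plaur and Tfpi ran the other way, with mice 2 and 5 above mice 3 and 4. The order was not particular to the mesothelial genes. The summed epithelial genes were at 31.8, 176, 694 and 31.8 FPKM in 2D mice 2, 3, 4 and 5. Among the stromal genes, Dcn was at 3.43, 15.1, 102 and 5.01 FPKM in these libraries. The summed stromal genes went the other way, at 3129, 2116, 2098 and 4530 FPKM. The part of these markers in the levels was not tested. Without the 2D libraries of mice 3 and 4, chosen after seeing the data, Thbd remained lower in 3D at -2.44 (adjusted p = 3.95e-04) and Procr at -3.65 (adjusted p = 5.06e-05), in a fit that called 22.8% of genes lower and 19.3% higher. F2r (-3.07) and Tfpi (-4.89) also passed there, so all 4 lower calls held, and Plau did not pass (0.92, adjusted p = 0.130).

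**Figure D3:**
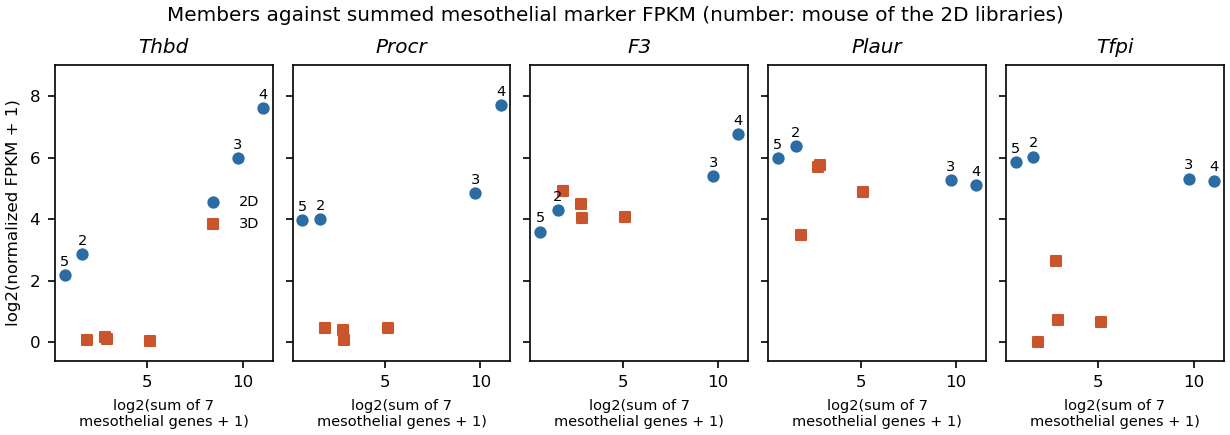
Level of 5 genes against the summed level of 7 mesothelial marker genes, both as log2(normalized FPKM + 1), in 2D (circles, mouse numbers) and 3D (squares) libraries. Mice 3 and 4 stand to the right in 2D (854 and 2148 FPKM), with the highest Thbd, Procr and F3, and 3D libraries have near-zero Thbd and Procr at low marker sums. The sums of 2D mice 2 and 5 (1.99 and 0.569 FPKM) lie below those of all 3D libraries. These 2D libraries have Thbd at 6.21 and 3.53 FPKM and Procr at 15.1 and 14.8 FPKM.

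Endothelial cells are a textbook site of Thbd, Procr and Tfpi. The summed FPKM of 9 endothelial genes was between 4.26 and 9.21 in 2D and between 1.21 and 2.95 in 3D, and the defining gene Tie1 was listed at 0 throughout. Pecam1 did not exceed 0.158 FPKM and Cdh5 did not exceed 0.164 FPKM in any library. Of the 9 genes, 3 exceeded 1 FPKM in 2D. Kdr, the receptor for the growth factor VEGF, was at 3.92 and 6.34 FPKM in mice 3 and 4, the libraries with the highest Thbd, Procr and F3, and at 0.188 and 0.155 FPKM in mice 2 and 5, while Egfl7 reached 4.21 FPKM. Megakaryocyte and platelet genes, another source of coagulation transcripts, summed to between 2.28 and 3.94 FPKM in 2D and between 2.58 and 14.1 FPKM in 3D, with the highest sum in mouse 1. Macrophage genes summed to between 5.41 and 24.9 FPKM in 2D and between 124 and 170 FPKM in 3D. Of the 6 macrophage genes, 2 were higher in 3D (limma adjusted p below 0.05), beside 21.2% of all genes, and 4 did not pass. In 3D, 3 of the 6 were below 1 FPKM in every library, and Lyz2 and Adgre1 held 0 fragments in all of them. Cd68 held about 118, 618, 181 and 173 fragments in 3D mice 1, 4, 5 and 7, against 11.3 to 60.9 in 2D. Csf1r held about 27.8, 460, 557 and 269 in the same 3D libraries, against 31.4 to 115 in 2D. Cd14, a receptor for bacterial lipopolysaccharide that epithelia can also make, was at 81.7 to 164 FPKM in 3D. Among 5 adipocyte genes only Lpl, a lipase that other cells also make, exceeded 0.160 FPKM in 2D (6.62 to 39.2 FPKM). The sum of the 5 was between 6.80 and 39.5 FPKM in 2D and at most 0.243 FPKM in 3D, and Adipoq was listed at 0 in all libraries. The part of these cell types was not tested.

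F2r, the thrombin receptor PAR1, had the highest mean of the 9 genes in 2D and fell in 3D, although Procr and Thbd exceeded it in 2D mouse 4 and Plaur in 2D mouse 2. Its levels were 69.3, 132, 110 and 79.0 FPKM in 2D mice 2, 3, 4 and 5, and 2.41, 13.05, 12.1 and 7.69 FPKM in 3D mice 1, 4, 5 and 7. The groups did not overlap, and mouse 1 was the lowest library. The means of 97.6 ± 28.7 and 8.82 ± 4.87 FPKM (SD, n = 4 each) gave an 11.1-fold ratio. The fitted log2 fold change of F2r was -3.47 ± 0.46 (SE; limma adjusted p = 7.31e-04), with -2.99 in mouse 4 and -2.61 in mouse 5. Its blocked value was -2.80 (adjusted p = 0.111), and with mice 4 and 5 alone, without a block, it was -2.79 (adjusted p = 0.0106), in a fit that called 7.92% of genes lower and 9.89% higher.

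The neighbouring receptor gene F2rl1 went the opposite way. F2rl1 encodes PAR2, which trypsin-like proteases and the tissue factor complex cut, but thrombin does not. It stood at 2.97, 0.271, 0.0493 and 1.47 FPKM in 2D mice 2, 3, 4 and 5, and at 18.8, 56.2, 111 and 80.6 FPKM in 3D mice 1, 4, 5 and 7. The groups were apart, and the fitted log2 fold change was 4.90 ± 0.62 (SE; limma adjusted p = 6.14e-04). F2rl3, the thrombin receptor PAR4, was low in 2D (0.946 ± 0.697 FPKM) and lower in 3D (0.0616 ± 0.0248 FPKM; -0.80, adjusted p = 0.0288). F2rl2, or PAR3, did not pass the test, at 0.302 ± 0.105 FPKM in 2D and 0.224 ± 0.146 FPKM in 3D (SD, n = 4 each; adjusted p = 0.467).

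**Figure D4:**
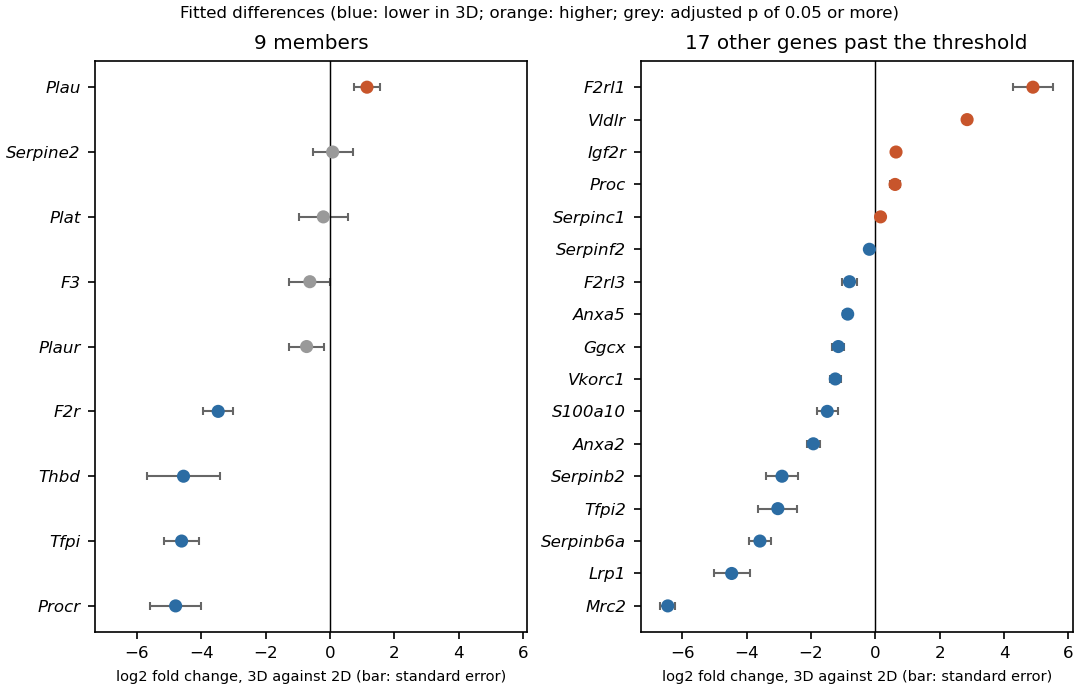
Fitted log2 fold change of 3D against 2D with its standard error for the 9 genes (left) and for 17 other plasminogen and coagulation genes with an adjusted p below 0.05 that the text describes (right); grey points did not pass. Mrc2 lies at -6.45 and F2rl1 at 4.90, and the fitted values of genes at 0 in a group, such as Tfpi2 and Serpinb2, depend on the added 1 FPKM.

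On the fibrinolytic side, neither activator passed the test as lower in 3D. Plau, the urokinase gene, stood at 20.99, 29.3, 11.1 and 28.7 FPKM in 2D mice 2, 3, 4 and 5, and at 26.9, 70.5, 65.3 and 42.5 FPKM in 3D mice 1, 4, 5 and 7. Mouse 1 in 3D fell within the 2D range, and the other 3 libraries were above it. The means were 22.5 ± 8.50 and 51.3 ± 20.3 FPKM (SD, n = 4 each), and the fitted log2 fold change of Plau was 1.15 ± 0.39 (SE; limma adjusted p = 0.0484). This call was close to the threshold: 14 of 17 alternatives lost it, with adjusted p-values between 0.0189 and 0.195 over all 17. Among the libraries left out in turn, the call was lost without any 1 of the 2D libraries (0.0509 to 0.0944) and without mouse 4, 5 or 7 of 3D (0.0800 to 0.117), and was kept without mouse 1 of 3D. It was also lost on the values as deposited (0.90, adjusted p = 0.1002) and in the blocked fit (1.86, adjusted p = 0.195).

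Plat, which encodes the activator of fibrin-bound plasminogen, had 3D libraries on both sides of the 2D group. Its values were 22.4, 36.6, 37.9 and 27.3 FPKM in 2D mice 2, 3, 4 and 5, and 6.31, 76.9, 67.4 and 13.1 FPKM in 3D mice 1, 4, 5 and 7. Mice 4 and 5 were above every 2D library and mice 1 and 7 below every one, a 12.2-fold range within 3D against 1.69-fold within 2D. On the log2 scale Plat differed by -0.21 ± 0.76 (SE; limma adjusted p = 0.842). In the animals that gave both cultures Plat was higher in 3D, by 1.00 in mouse 4 and 1.27 in mouse 5. With these 4 libraries alone the value was 1.13 (adjusted p = 0.0431), and with the mouse as a block it was 1.14 (adjusted p = 0.119). The log2 ratio of Plat to Plau was 0.53 ± 0.84 in 2D and -0.90 ± 1.15 in 3D (SD, n = 4 each; two-sided exact permutation p = 0.143).

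Plaur, the receptor that holds urokinase at the surface, did not pass the test. It stood at 81.3, 37.7, 33.6 and 61.8 FPKM in 2D mice 2, 3, 4 and 5, and at 10.1, 28.7, 50.9 and 53.1 FPKM in 3D mice 1, 4, 5 and 7. The groups overlapped, with mouse 1 the lowest of all libraries. Plaur had a fitted log2 fold change of -0.73 ± 0.54 (SE; limma adjusted p = 0.324), with -0.22 in mouse 4 and -0.27 in mouse 5. The log2 ratio of Plau to Plaur, the protease against its receptor, was -1.95, -0.36, -1.59 and -1.11 in 2D mice 2, 3, 4 and 5, and 1.41, 1.30, 0.36 and -0.32 in 3D mice 1, 4, 5 and 7. All 3D ratios were above all 2D ratios, by a difference in means of 1.94 (two-sided exact permutation p = 0.0286, adjusted p = 0.0714 over 5 ratios). Urokinase transcripts were below those of the receptor in all 4 of the 2D libraries and above them in 3 of the 4 3D libraries, per length.

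Serpine2, a secreted inhibitor of thrombin, urokinase and tissue plasminogen activator, had the lowest mean of the 9 genes in 2D, although Thbd was below it in 2D mouse 5. Its levels were 6.19, 6.24, 10.98 and 5.04 FPKM in 2D mice 2, 3, 4 and 5, and 29.6, 3.01, 6.72 and 4.00 FPKM in 3D mice 1, 4, 5 and 7. Mouse 1 stood above all other libraries, and the other 3D libraries were within or below the 2D range. The fitted log2 fold change of Serpine2 was 0.08 ± 0.62 (SE; limma adjusted p = 0.922), and without the 3D library of mouse 1 it was -0.55 (adjusted p = 0.215). The log2 ratio of Plau to Serpine2 was 1.61 ± 1.11 in 2D and 2.75 ± 2.01 in 3D (SD, n = 4 each; two-sided exact permutation p = 0.343).

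The 3D library of mouse 1 was at an end of the 3D group for several genes. It had the lowest Plat, Plau, Plaur, F2r and Tfpi and the highest Serpine2 and F3 of the 4 libraries. Without it the fitted log2 fold change was -3.07 for F2r (adjusted p = 2.41e-04), -4.33 for Tfpi (8.89e-04), 1.44 for Plau (0.0189) and 0.43 for Plat (0.604).

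By mean level per length, the order in 2D was F2r, Procr, Thbd, Plaur, Tfpi, F3, Plat, Plau and Serpine2, and only the last neighbours, Plau and Serpine2, did not overlap between their libraries. In 3D it was Plau, Plat, Plaur, F3, Serpine2, F2r, Tfpi, Procr and Thbd, and every neighbouring pair overlapped. The genes at the head of the 3D order were thus the plasminogen activators and the urokinase receptor, with the 4 lower genes at its end.

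**Figure D5:**
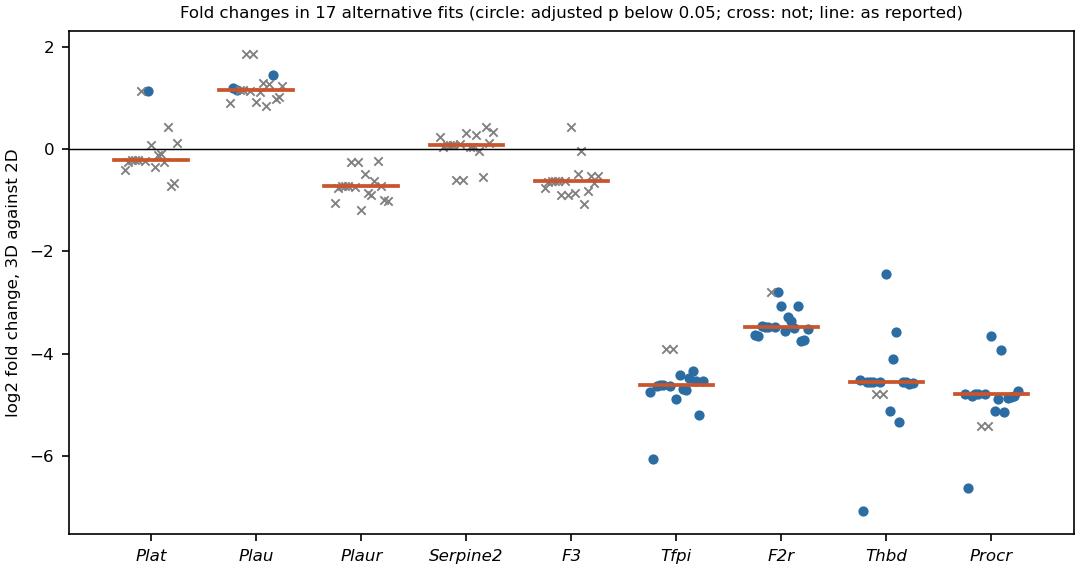
Fitted log2 fold change of each of the 9 genes in 17 alternative fits (circles, adjusted p below 0.05; crosses, not) beside the reported value (line). F2r, Thbd, Procr and Tfpi stay below 0 throughout and passed in 15 or 16 of 17 fits, while Plat ranges from -0.72 to 1.14 and Plau passed in 3.

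Of 20 other genes of the plasminogen system, 17 were above 0 in at least 1 library, with Serpina5, Klkb1 and F12 listed at 0 in all. Among these 17, 8 were lower in 3D, 2 were higher and 7 did not pass, beside 20.3% lower and 21.2% higher among all genes, with a median log2 fold change of -0.62 over the 17. In the blocked fit none passed, and 10 had an unadjusted p below 0.05, beside 27.7% of all genes. Plg, plasminogen itself, was at or under its detection limit in all libraries, a limit of 3 fragments that corresponds to at most 0.0753 FPKM.

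Receptors on the list differed in direction. Mrc2, a collagen receptor that associates with the urokinase receptor, fell from 97.3 ± 29.3 to 0.0853 ± 0.0765 FPKM (log2 fold change -6.45). Lrp1, the endocytic receptor for protease-serpin complexes, fell from 61.6 ± 5.66 to 2.71 ± 2.89 FPKM (-4.46). Vldlr, a related endocytic receptor, rose from 8.07 ± 0.624 to 64.9 ± 9.63 FPKM (2.85), and Igf2r, which also binds the urokinase receptor, rose from 32.5 ± 1.86 to 51.5 ± 6.27 FPKM (0.64; SD, n = 4 each). Lrp8, of the same receptor family as Vldlr, did not pass (0.93, adjusted p = 0.221). Adjusted p-values of the 4 genes that passed were between 1.06e-06 and 0.00169 (limma). The intracellular serpin Serpinb6a fell from 278 ± 48.7 to 23.8 ± 9.95 FPKM (-3.58). Serpinb2, a serpin that inhibits urokinase, was at 8.37 ± 7.41 FPKM in 2D and listed at 0 in all 3D libraries, at least 80.2-fold lower on the deposited values and at least 42.6-fold lower without 2D mouse 2. Anxa2 and S100a10, which together form a plasminogen receptor, also fell (-1.93 and -1.49). Serpinf2, the plasmin inhibitor, passed the test from a mean of 0.140 FPKM in 2D to values listed at 0 in 3D, a bound of only 1.06-fold on the deposited values.

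Of 27 other coagulation genes, 22 were above 0, and the fibrinogen genes Fga, Fgb and Fgg as well as F11 and F13b were listed at 0 in all libraries. Among these 22, 5 were lower in 3D, 3 were higher and 14 did not pass, beside 20.3% lower and 21.2% higher among all genes, with a median log2 fold change of -0.02, and 13 never reached 1 FPKM. None passed in the blocked fit, and 6 had an unadjusted p below 0.05 there, beside 27.7% of all genes. F2, F7 and F10, the plasma factors that tissue factor and PAR1 work with, were at or under the limit of 3 fragments in every library.

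The lower coagulation genes included both enzymes of the vitamin K cycle that let clotting factors be carboxylated. Vkorc1 fell from 31.4 ± 7.21 to 12.5 ± 1.33 FPKM (log2 fold change -1.24, limma adjusted p = 7.68e-04), and Ggcx from 16.1 ± 3.62 to 6.65 ± 1.34 FPKM (-1.15, adjusted p = 0.00214; SD, n = 4 each). Tfpi2, a Kunitz inhibitor related to Tfpi, was at 17.6, 1.53, 4.95 and 14.9 FPKM in 2D mice 2, 3, 4 and 5 and listed at 0 in all 3D libraries, at least 72.4-fold lower on the deposited values. Anxa5, which binds the phosphatidylserine surface on which clotting factors assemble, fell from 261 ± 32.3 to 144 ± 22.3 FPKM (-0.86). Proc, the protein C gene, was at or under its limit in 2D and at 0.0953, 0.766, 0.788 and 0.659 FPKM in 3D mice 1, 4, 5 and 7. Set against the limit of 3 fragments, its deposited 3D mean of 0.661 FPKM was at least 5.68-fold higher. Serpinc1, or antithrombin, passed at a low level, with a mean of 0.146 FPKM in 3D (log2 fold change 0.16).

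For each of the 9 genes the most similar profiles were sought among the 12577 genes that averaged 1 FPKM or more. Likeness was the root mean square difference of log2 levels over the 8 libraries, after each gene was centred at its own mean. F2r had the closest partner, Lhfp (0.15), followed by Dlc1 (0.33). Gdf6 came first for both Procr (0.44) and Thbd (0.58), with Dcn next for Procr and Myrf next for Thbd. Tfpi was most like Tubb2b (0.35) and Gpr176, Plaur like Psat1 (0.20) and Aldh18a1, and F3 like Fam110c (0.26) and Ncoa4. Plat was most like Sema3e (0.39) and Mndal, Plau like 2900060B14Rik (0.26) and Npnt, and Serpine2 like Man1a (0.36) and Cxxc5. These are descriptions over 8 libraries that share the difference between the cultures.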

How the data were processed

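RNA of 8 ADSC cultures was sequenced after ribosomal depletion with a directional kit. After quality control in FastQC and trimming by FASTX_Trimmer and BBMap, the authors aligned reads by TopHat (build mm10 per the submitters' processing notes) and obtained FPKM values from Cufflinks. The deposited values are these FPKM values per gene and library, without read counts. Tool versions and the annotation are not given in the sources used here.

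Genes at 0 in all libraries (5484 of 24346) were left out, values were quantile normalized as the study's methods state, and log2(FPKM + 1) was fitted with limma 3.58.1 in R 4.3.3 (intensity trend, no covariates, Benjamini-Hochberg over 18862 genes, threshold 0.05). Ratios used exact permutation tests (scipy 1.17.1). Quantile normalization is not linear, so ratios were also computed on the deposited values. Depth was estimated from the steps of low values in 875 single-transcript genes of at least 3000 nt (GENCODE M21, 95.7% of symbols matched). Between 70.2% and 81.2% of low values lay within 0.15 of a whole multiple, and the detection limit is 3 fragments. These limits cover counting error only.

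Mice 4 and 5 pair the cultures, since each gave both. Over 12577 genes, the 2D and 3D deviations of a mouse had a correlation of -0.0526 (mouse 4) and -0.113 (mouse 5). The alternatives were a replicate block, the mouse as a random effect, mice 4 and 5 alone, deposited values, other filters and pseudocounts, no intensity trend and each library left out. Named genes were the 9 genes, the direct partners Plg, F2, F7, F10, Proc and F2rl1, up to 4 rises and 4 falls with the largest fold in each other list, the 2 most similar profiles, and markers that bear on a gene. Serpinb2, Serpinf2, Anxa2, S100a10, F2rl2, F2rl3, Lrp8 and the list genes at 0 were named after their values were seen. The 9 genes and all lists were chosen with earlier results of these data known. The description label of the 3D library of mouse 1 does not contain the culture, which was taken from its title. Not every gene the rule picks is reported here.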

Additional observations from a re-analysis of the deposited data

Results flagged for a closer look

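The level of Procr in the 3D library of mouse 7 lay far from the other 3 libraries of its group. Its gap to the nearest of them took 0.855 of the range of the group on the log2 scale, above Dixon's critical value at 95% for 4 libraries. The library stood at 0.0497 FPKM, about 1 fragment, against 0.321 to 0.374 FPKM in the others. Of 28 groups examined this way this was the 1 beyond the limit, where chance gives about 1 in 20.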

How the results depend on the processing

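F2r, Thbd, Procr and Tfpi kept a negative fold change in all 17 alternatives and passed in all 8 fits that left out a library, with adjusted p-values of at most 0.0377. With the replicate block the counts of lower and higher genes fell to 0 and 0 among the 9 genes, 0 and 0 among the other plasminogen genes, and 0 and 0 among the other coagulation genes, in a fit with 1 residual degree of freedom. With only mice 4 and 5 the lower counts were 1, 5 and 2 in the same order, in a fit that called 7.92% of all genes lower. The call of Plau, and with it the count of higher genes, went to 0 on the values as deposited, with no filter, with no intensity trend, with the mouse as a random effect and without 2D mice 3 and 4, and was 0 to 1 over the fits that left out a library. A filter at a mean of 1 FPKM left 1 higher coagulation gene, since Proc and Serpinc1 averaged below 1 FPKM and were not tested there. Genes that did not pass changed sign: Plat with the block (1.14), only mice 4 and 5 (1.13) and without 2D mice 3 and 4 (0.081), with -0.72 to 0.43 over libraries left out; Serpine2 with the block (-0.61) and only mice 4 and 5 (-0.61), with -0.55 to 0.44 over libraries left out; and F3 without 2D mice 3 and 4 (0.43). The ratio of Thbd to Procr changed sign with a pseudocount of 1 (0.24) and without 2D mice 3 and 4 (0.63), with -0.94 to 0.12 over libraries left out. Except where the construction shows it, the cause was not tested. With 3 against 4 libraries an exact permutation test cannot go below p = 0.0571. Depth limits Thbd, Procr and Tfpi in 3D, where single libraries hold few fragments.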
